A study of Mus musculus with 6 samples.

Results

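Transcripts of 10 genes of transforming growth factor beta (TGF-beta) and activin signalling were followed through 6 RNA libraries of injured mouse hearts. The genes were the ligand genes Tgfb1, Tgfb2, Tgfb3 and Inhba, the matrix gene Ltbp2, the receptor genes Tgfbr1 and Tgfbr2, and the inhibitor genes Bambi, Smad7 and Skil. They were taken by symbol from a deposited table of 55359 genes, and all 10 were found and were among the 20489 genes that passed the filter on low counts. None of the 10 passed the test between the groups, which 0.00976% of all genes tested passed. In a single control library 5 of them were highest, as were 24.4% of all genes.

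TGF-beta is secreted in a latent form that is held in the extracellular matrix by LTBP proteins until proteases, integrins or thrombospondin release it. The active dimer joins type II receptors (TGFBR2) to type I receptors (TGFBR1), which phosphorylate SMAD2 and SMAD3, and these enter the nucleus with SMAD4. Activin A, a dimer of 2 INHBA chains, signals through its own receptors to the same SMADs. SMAD7, SKIL and BAMBI restrain the pathway at the receptor or in the nucleus. In the infarcted heart the pathway is best known for turning fibroblasts into matrix-producing myofibroblasts and for damping inflammation.

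All hearts came from C57BL/6 mice subjected to 45 min of ischemia and 24 h of reperfusion, an injury in which the blood flow of the heart is stopped and restored. In the 4 weeks before surgery the mice had carried an AAV9 vector, given by tail vein, with an shRNA against YTHDF2 (3 libraries, shYthdf2 1 to 3) or a negative control shRNA (3 libraries, shNC 1 to 3), and the construct held a cTNT promoter and a GFP gene. YTHDF2 is a reader of N6-methyladenosine in RNA, and the cTNT promoter is active in cardiomyocytes, while the RNA was that of whole hearts with all their cell types. No uninjured heart was among the samples, and the labels do not say whether replicates were separate animals, so that each p-value rests on the spread among these libraries alone, which may be technical.

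The libraries held 67023813 to 77561552 counts each. Transcripts of the targeted gene, Ythdf2, were at 20.7, 24.3 and 27.0 CPM (counts per library size, scaled by TMM) in shNC 1, 2 and 3 and at 25.1, 25.6 and 32.7 CPM in shYthdf2 1, 2 and 3, so the libraries labelled YTHDF2 shRNA did not hold fewer of them. Each direction below is therefore between the libraries labelled YTHDF2 shRNA and those labelled NC shRNA. The control shNC 3 stood apart: its log2 CPM correlated with those of shNC 1 and 2 at r = 0.913 and 0.907 across the 20489 genes, against 0.950 between shNC 1 and 2. The closest pair was shYthdf2 1 and 2 (r = 0.963), whose counts still differed by far more than sampling noise, with a chi-square per gene of 40.6. Results are given with all libraries and, where it moves them, without shNC 3. Where shNC 3 is the highest control of a gene, leaving it out raises that gene's fold by construction. Heart muscle markers were abundant throughout, with Myh6, the main myosin heavy chain of the adult mouse ventricle, at 4586 to 17236 CPM.

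Promoters are shown for Tgfb2, Inhba and Ltbp2, because these genes ran from lowest in shNC 2 to highest in shNC 3, by 4.46-, 20.7- and 28.1-fold. Skil had the same lowest and highest library, but no promoter sequence of it was at hand. Among the shYthdf2 libraries the 3 differed, with Tgfb2 highest in shYthdf2 3 and Inhba and Ltbp2 lowest there. The search used 7 RefSeq promoter windows (build GRCm38.p6) of 6 of the 10 genes, each with 250 bases before and 50 bases after a transcript start. Capitals mark CAGAC, a short sequence that SMAD3 and SMAD4 can bind, on either strand (GTCTG on the other), and TATAAA, the letters of a TATA box.
Tgfb2, chr1:186705940-186706239, minus strand: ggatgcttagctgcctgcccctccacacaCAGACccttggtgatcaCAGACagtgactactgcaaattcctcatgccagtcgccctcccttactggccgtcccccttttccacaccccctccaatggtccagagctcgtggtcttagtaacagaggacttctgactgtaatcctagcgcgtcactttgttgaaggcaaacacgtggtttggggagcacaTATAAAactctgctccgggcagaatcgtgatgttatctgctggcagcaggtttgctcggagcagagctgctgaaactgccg
Inhba, chr13:16011601-16011900, plus strand: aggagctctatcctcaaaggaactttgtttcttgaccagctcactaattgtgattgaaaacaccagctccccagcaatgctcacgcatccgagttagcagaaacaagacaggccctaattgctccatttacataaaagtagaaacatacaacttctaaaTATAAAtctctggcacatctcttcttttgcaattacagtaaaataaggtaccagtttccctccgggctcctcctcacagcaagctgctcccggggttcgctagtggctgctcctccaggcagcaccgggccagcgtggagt
Ltbp2, chr12:84876442-84876741, minus strand: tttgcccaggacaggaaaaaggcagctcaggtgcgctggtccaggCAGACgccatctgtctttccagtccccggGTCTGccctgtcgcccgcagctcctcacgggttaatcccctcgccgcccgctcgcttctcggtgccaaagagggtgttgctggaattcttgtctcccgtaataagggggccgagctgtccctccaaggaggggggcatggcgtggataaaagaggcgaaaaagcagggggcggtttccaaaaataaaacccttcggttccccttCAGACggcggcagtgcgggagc
CAGAC occurred in the Tgfb2 window at bases 30 to 34 and 47 to 51 and in the Ltbp2 window at bases 46 to 50, 75 to 79 and 279 to 283, counted from the 5′ end. It also occurred in a window of Tgfbr1 at bases 48 to 52 and in that of Tgfbr2 at bases 91 to 95, a gene without the order of these 3. CAGAC lay in 49.6% of all 32851 promoter windows on either strand. TATAAA occurred at bases 220 to 225 of the Tgfb2 window and at bases 160 to 165 of the Inhba window, and in 13.6% of all windows. The longer SMAD element GTCTAGAC, in 0.213% of windows, and the AP-1 site TGANTCA, in 7.81% of windows, were not found in the 7 windows, which says only that these letters are not in these stretches.

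Among the 3 TGF-beta ligands, Tgfb1 had the most transcripts per length in 5 of 6 libraries, and in shYthdf2 3 it was level with Tgfb3 (7.85 and 7.89 FPKM). Tgfb1 encodes the isoform of platelets, macrophages and fibroblasts (ENSMUSG00000002603, chromosome 7, 25386427 to 25404502, plus strand, in the table's coordinates, whose build is not given in the sources used here). It was at 37.5, 33.2 and 53.6 CPM in shNC 1, 2 and 3 and at 56.3, 61.6 and 44.4 CPM in shYthdf2 1, 2 and 3. The controls shNC 1 and 2 lay lowest, and shNC 3 lay among the shYthdf2 libraries, so the groups overlapped. Group means of Tgfb1 came to 41.4 ± 10.8 CPM (SD, n = 3) for shNC and 54.1 ± 8.83 CPM (SD, n = 3) for shYthdf2. On the log2 scale shYthdf2 minus shNC was 0.38 ± 0.24 (SE) for Tgfb1, with a 95% interval of -0.18 to 0.95, and edgeR's quasi-likelihood test gave an adjusted p of 0.976. By exact two-sided permutation of the libraries p was 0.2, and 3 against 3 cannot go below 0.1. The log2 fold change was 0.25 without shNC 2 and 0.62 without shNC 3.

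Tgfb2, the isoform used in heart valve and outflow tract development, was spread more widely (ENSMUSG00000039239, chromosome 1, 186354989 to 186438186, minus strand). It was at 15.3, 10.8 and 48.2 CPM in shNC 1, 2 and 3 and at 32.2, 32.7 and 42.9 CPM in shYthdf2 1, 2 and 3. All shYthdf2 libraries lay between the low controls, shNC 1 and 2, and the high control, shNC 3. Between groups the log2 fold change of Tgfb2 was 0.54 ± 0.53 (SE, 95% interval -0.70 to 1.77, edgeR adjusted p = 0.976). Without shNC 3 it was 1.46 ± 0.24 (SE), with an adjusted p of 0.0537 in edgeR, while it was 0.29 without shNC 1 and 0.18 without shNC 2.

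Tgfb3, the third isoform (ENSMUSG00000021253, chromosome 12, 86103519 to 86125815, minus strand), was at 18.8, 11.9 and 28.6 CPM in shNC 1, 2 and 3 and at 18.3, 23.1 and 29.9 CPM in shYthdf2 1, 2 and 3. The groups covered almost the same range, with only shNC 2 below all shYthdf2 libraries. The log2 fold change was 0.27 ± 0.35 (SE, edgeR adjusted p = 0.976), and 0.63 ± 0.29 (SE, edgeR adjusted p = 0.304) without shNC 3. It was 0.43 without shYthdf2 1, 0.071 without shYthdf2 3 and 0.0099 without shNC 2.

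The shares of the 3 ligands overlapped between the groups. In FPKM, which are per length, Tgfb1 made 47.5%, 54.9% and 38.8% of the 3 ligands in shNC 1, 2 and 3, against 50.4%, 49.5% and 35.1% in shYthdf2 1, 2 and 3. The share of Tgfb2 was 16.9%, 15.6% and 30.4% in the controls and 25.1%, 22.9% and 29.6% in shYthdf2. In the libraries numbered 3 of both groups Tgfb1 thus had its lowest shares and Tgfb2 its highest, although these numbers pair nothing in the labels. The sum of the 3 ligands was 13.6, 9.58 and 27.7 FPKM in the controls and 20.2, 22.5 and 22.3 FPKM in shYthdf2. For the sum and for the share of Tgfb2 the exact permutation test gave p = 0.4 each, and for the share of Tgfb1 p = 0.7.

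Inhba, which encodes the chain of activin A, was among the members with the widest spread (ENSMUSG00000041324, chromosome 13, 16186436 to 16206206, plus strand). Its raw counts were 306, 133 and 3082 in shNC 1, 2 and 3, against 2035, 2593 and 1399 in shYthdf2 1, 2 and 3. In CPM it was at 4.13, 1.96 and 40.6 in the controls and at 28.2, 33.5 and 18.4 in shYthdf2. The mean of shYthdf2 was 8.76 times the mean of shNC 1 and 2, but shNC 3 exceeded every shYthdf2 library and was 13.3 times that mean. The log2 fold change of Inhba was 0.78 ± 0.99 (SE, 95% interval -1.54 to 3.10), with an edgeR adjusted p of 0.976 and an exact permutation p of 0.4. Without shNC 3 the log2 fold change was 3.13 ± 0.44 (SE) and Inhba passed in edgeR (adjusted p = 0.0438), in a fit that called 0.993% of all genes tested. Leaving out the control with the highest value raises this fold by construction. It was 0.33 without shNC 1 and 0.26 without shNC 2. On the other strand B230303A05Rik overlaps Inhba by 11573 bases, with 16, 1 and 0 counts in shNC 1, 2 and 3 and 87, 100 and 12 counts in shYthdf2 1, 2 and 3.

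**Figure D1:**
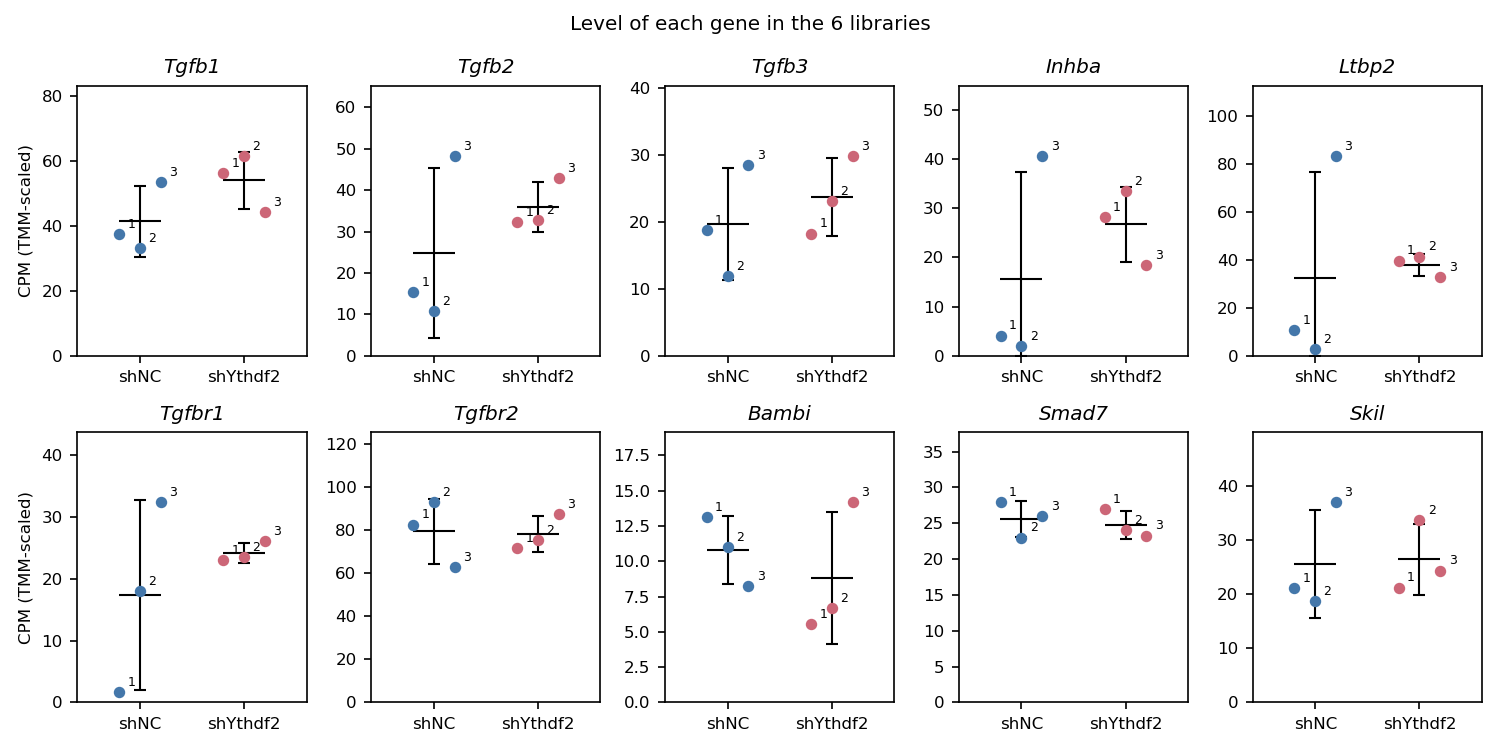
CPM on TMM-scaled library sizes of the 10 genes in the 6 libraries, with a panel and a linear axis from 0 for each gene. Points are libraries with their number, and black marks are the group mean with the SD of 3 libraries (lower bars stop at 0). For Inhba and Ltbp2 the control shNC 3 sits above all shYthdf2 libraries, and shNC 1 and 2 sit below them.

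Ltbp2, a latent TGF-beta binding protein family member of elastic fibres that, unlike its relatives, is not known to bind latent TGF-beta, was the most variable of the 10 (ENSMUSG00000002020, chromosome 12, 84829986 to 84923306, minus strand). It was at 10.6, 2.97 and 83.2 CPM in shNC 1, 2 and 3 and at 39.7, 41.3 and 32.8 CPM in shYthdf2 1, 2 and 3. As for Inhba, the controls lay on either side of the shYthdf2 group, which for Ltbp2 was narrow. The means of 32.3 ± 44.3 CPM (SD, n = 3) in shNC and 37.9 ± 4.55 CPM (SD, n = 3) in shYthdf2 differed by less than the spread of the controls. For Ltbp2 the log2 fold change was 0.23 ± 0.99 (SE, edgeR adjusted p = 0.988). It turned to -0.18 without shNC 1 and to -0.30 without shNC 2, and was 2.48 ± 0.53 (SE, edgeR adjusted p = 0.0753) without shNC 3. A long noncoding gene, D030025P21Rik, overlaps Ltbp2 on the other strand by 764 bases with at most 168 counts in a library, and no source says that strand was used in counting.

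The receptor genes behaved differently from each other. Tgfbr2, the type II receptor that binds TGF-beta (ENSMUSG00000032440, chromosome 9, 115913361 to 116004428, minus strand), was at 82.5, 92.8 and 62.8 CPM in shNC 1, 2 and 3 and at 71.5, 75.5 and 87.6 CPM in shYthdf2 1, 2 and 3. It varied only 1.48-fold over the 6 libraries, with shNC 3 lowest. For Tgfbr2 the log2 fold change was -0.02 ± 0.21 (SE, 95% interval -0.51 to 0.46, edgeR adjusted p = 0.995), and its sign depended on the scaling, at 0.00094 with library totals.

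Tgfbr1, the type I receptor kinase that phosphorylates SMAD2 and SMAD3, was low in a single control library (ENSMUSG00000007613, chromosome 4, 47353222 to 47414931, plus strand). It had 120 counts in shNC 1, against 1220 and 2452 in shNC 2 and 3, while counts reached 1660, 1819 and 1980 in shYthdf2 1, 2 and 3. In CPM it was at 1.62, 17.999 and 32.3 in the controls and at 23.0, 23.5 and 26.1 in shYthdf2, whose SD of 1.64 CPM compares with 15.3 CPM in shNC. The log2 fold change of Tgfbr1 was 0.48 ± 0.82 (SE, edgeR adjusted p = 0.976). It was -0.05 without shNC 1 and 1.31 ± 0.84 (SE, edgeR adjusted p = 0.459) without shNC 3. No other row of the table overlaps Tgfbr1.

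The ratio of the receptors followed the low value of Tgfbr1. Tgfbr2 exceeded Tgfbr1 by 40.9, 4.12 and 1.55 times in FPKM in shNC 1, 2 and 3 and by 2.48, 2.56 and 2.68 times in shYthdf2 1, 2 and 3. The shYthdf2 ratios were close to each other and lay inside the range of the controls (exact permutation p = 0.4).

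**Figure D2:**
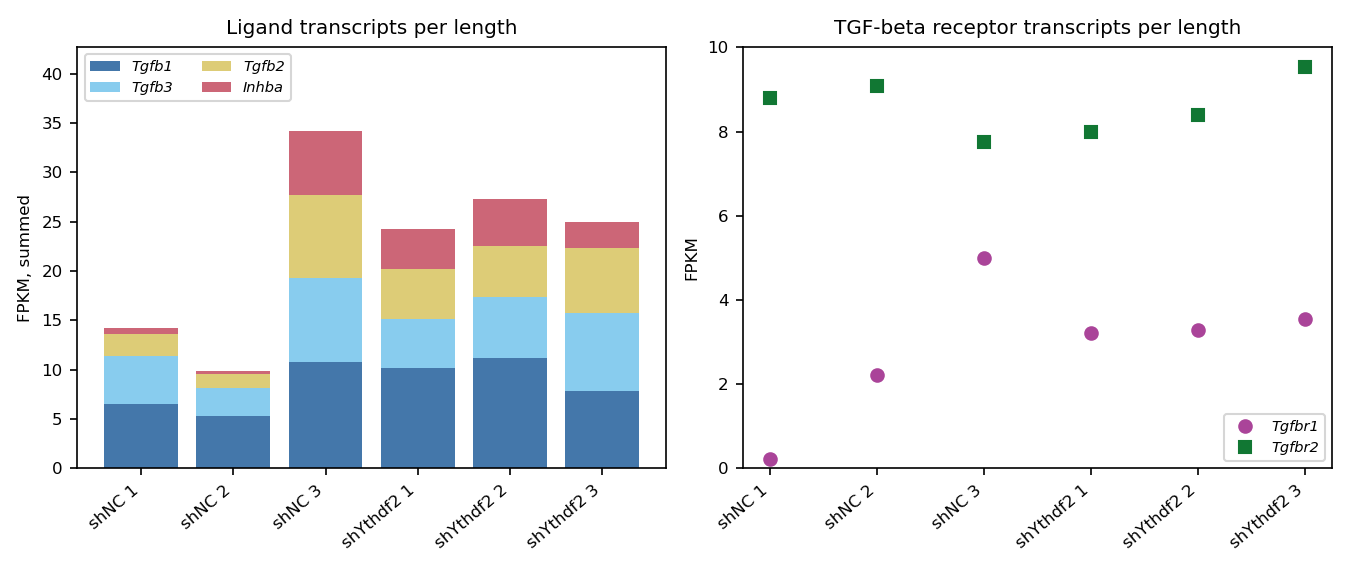
Left, stacked FPKM of the ligand genes Tgfb1, Tgfb3, Tgfb2 and Inhba in each library. Right, FPKM of Tgfbr1 and Tgfbr2 in each library. The ligand stack is lowest in shNC 1 and 2 and highest in shNC 3, and Tgfbr1 is near 0 in shNC 1 (0.215 FPKM) while Tgfbr2 stays between 7.76 and 9.54 FPKM.

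Bambi, a decoy receptor without a kinase domain that dampens TGF-beta signalling, was the gene of the 10 with the fewest transcripts per length (ENSMUSG00000024232, chromosome 18, 3507923 to 3516404, plus strand). It was at 13.1, 11.0 and 8.26 CPM in shNC 1, 2 and 3 and at 5.57, 6.68 and 14.2 CPM in shYthdf2 1, 2 and 3. The lowest and the highest library were both in the shYthdf2 group. Between groups the log2 fold change of Bambi was -0.29 ± 0.39 (SE, edgeR adjusted p = 0.976). It was -0.81 without shYthdf2 3, at an unadjusted p of 0.0335 in edgeR, a p reached by 3.39% of genes in that fit, and -0.046 without shYthdf2 1.

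Smad7, the inhibitory SMAD that TGF-beta itself induces, was the steadiest of the 10 (ENSMUSG00000025880, chromosome 18, 75500600 to 75529006, plus strand). It was at 27.9, 23.0 and 26.0 CPM in shNC 1, 2 and 3 and at 26.9, 24.0 and 23.3 CPM in shYthdf2 1, 2 and 3. Over the 6 libraries it varied 1.21-fold, while the ligand Inhba varied 20.7-fold. Smad7 had a log2 fold change of -0.05 ± 0.17 (SE, 95% interval -0.46 to 0.36, edgeR adjusted p = 0.986).

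Skil, which encodes SnoN, a nuclear co-repressor of SMAD complexes and also a TGF-beta target (ENSMUSG00000027660, chromosome 3, 31149207 to 31176726, plus strand), was at 21.1, 18.7 and 37.0 CPM in shNC 1, 2 and 3 and at 21.2, 33.7 and 24.4 CPM in shYthdf2 1, 2 and 3. High values occurred in shNC 3 and in shYthdf2 2. For Skil the log2 fold change was 0.05 ± 0.31 (SE, edgeR adjusted p = 0.992). It turned negative without shNC 1, shNC 2 or shYthdf2 2, to -0.07, -0.13 and -0.16.

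Over all 10 genes, 0 passed at an adjusted p under 0.05 in edgeR, where 0.00976% of all genes tested did, and 0 had an unadjusted p under 0.05, where 3.65% did. DESeq2 called 0 of the 10 and 0.270% of all genes. The groups overlapped in all 10 genes, while 9.51% of all genes did not overlap and 4.95% lay higher in shYthdf2 without overlap. A log2 fold change above 0 was found in 7 of the 10, and in 48.6% of all genes, with a median of 0.25 against -0.01 over all genes. Without shNC 3 the median of the 10 was 0.62, against 0.02 over all genes, and without shNC 1 it was 0.02, against -0.02.

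Several of the 10 genes shared an order of the libraries. In CPM the highest library was shNC 3 for 5 of the 10 genes (Tgfb2, Tgfbr1, Inhba, Skil and Ltbp2), and for 24.4% of all genes. All 5 were lowest in shNC 1 or 2, an order found in 15.5% of all genes. Lowest in shNC 2 and highest in shNC 3 were 4 of the 10, all of these but Tgfbr1, and 8.28% of all genes. Counting the lowest library alone, 7 of the 10 were lowest in shNC 2, against 22.0% of all genes. In FPKM, which lack the TMM scaling, shNC 3 was highest for 7 of the 10 and for 35.6% of all genes. With shNC 3 left out, Tgfb1, Tgfb2, Inhba and Ltbp2 had an unadjusted p under 0.05 in edgeR, which 19.6% of all genes had in that fit. All 4 were higher in shYthdf2, as were 10.2% of all genes, and of these 4 only Inhba passed after adjustment. For each of the 4, shNC 3 was the highest control, so leaving it out raises their folds by construction. The counts without shNC 3 are therefore not independent of the order of the libraries given above.

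**Figure D3:**
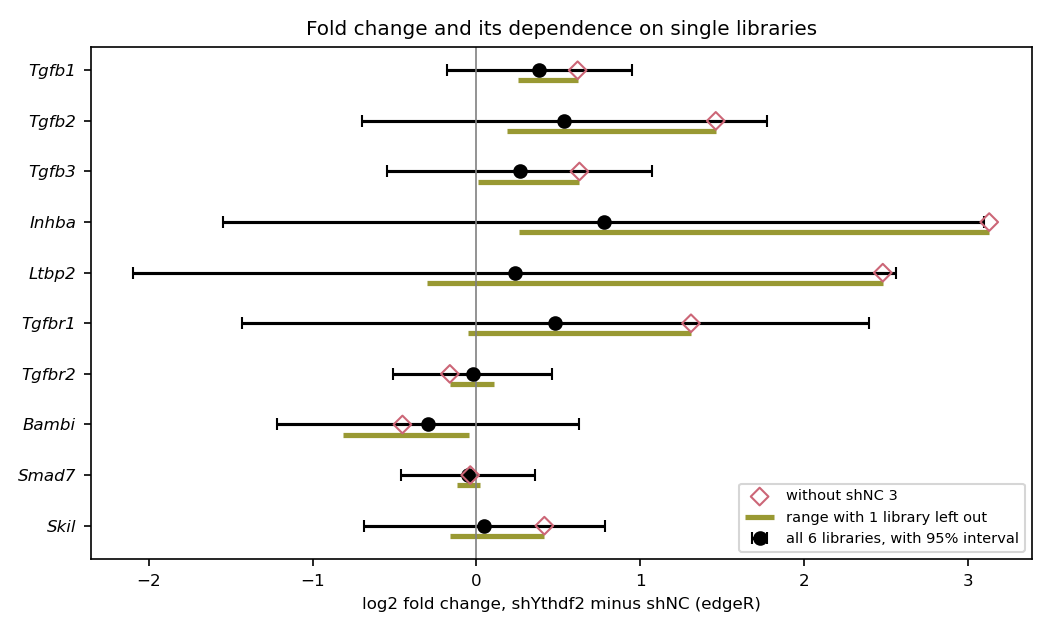
Log2 fold change of the 10 genes, shYthdf2 minus shNC, from edgeR. Black points with bars are the fit of all 6 libraries with its 95% interval, open diamonds the fit without shNC 3, and the lower lines the range over the fits with 1 library left out. All 10 intervals include 0, and the diamonds of Inhba and Ltbp2 sit at 3.13 and 2.48.

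Per length, Tgfb1 (8.61 ± 2.44 FPKM, SD over 6 libraries) and Tgfbr2 (8.59 ± 0.676 FPKM) were the most abundant of the 10, and their order changed between libraries. Tgfb3 (5.88 FPKM), Smad7 (5.02 FPKM), Tgfb2 (4.84 FPKM) and Ltbp2 (4.05 FPKM) followed, and neighbours in this order did not differ beyond their spread. Tgfbr2 lay above Tgfb3 in 5 of 6 libraries and Ltbp2 above Inhba (3.10 FPKM) in 5 of 6, by more than 1 SD of the log2 ratio in both cases. Tgfbr1 (2.91 FPKM), Skil (2.45 FPKM) and Bambi (1.72 FPKM) were lowest, again without a difference beyond the spread between neighbours.

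The genes most alike to the 2 members with the smallest p were found by Pearson's r of log2(CPM + 0.5) over the 6 libraries. For Tgfb1 these were Swap70, a regulator of actin in leukocytes (r = 0.995), Itprip (r = 0.995) and the tetraspanin gene Cd82 (r = 0.993). For Tgfb2 they were Rasl11b, Rnf145 and Spp1, which encodes osteopontin, a matricellular protein of macrophages (r = 0.998 each). Spp1 was at 22.2, 11.5 and 456 CPM in shNC 1, 2 and 3 and at 182, 185 and 312 CPM in shYthdf2, so it had the order of Tgfb2 over a wider range. With 6 libraries many genes reach a high r. Of 12977 genes, 148 (1.14%) had r over 0.95 with Tgfb1 and 501 (3.86%) with Tgfb2. That bar lies below the r of the genes named, and the share at their r was not counted.

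Further genes of the pathway were read from 6 lists with 86 genes, 81 of them tested. None of the 81 passed in edgeR, and 6 had an unadjusted p under 0.05, which 3.65% of all genes had, while DESeq2 called 1, the gene of smooth muscle actin, Acta2. A log2 fold change above 0 was found in 67 of the 81 and in 48.6% of all genes, with a median of 0.30 against -0.01 over all genes. The groups did not overlap in 7 of the 81, against 9.51% of all genes, and in 6 of these shYthdf2 lay above, against 4.95%. Without shNC 2 the count above 0 was 51 of 82 and the median 0.094, and without shNC 1 the median was 0.18. Without shNC 3 the median was 0.51, 36 of 82 had an unadjusted p under 0.05 in edgeR, against 19.6% of all genes, and 4 passed, against 0.993%. With all libraries 27 of the 81 were highest in shNC 3, against 24.4% of all genes. Leaving out shNC 3 raises the folds of such genes by construction, so these counts are no separate result about the pathway.

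Of the other ligands, 9 of 12 tested had a log2 fold change above 0, with a median of 0.42, and 0 passed in edgeR. Without shNC 3 the median was 0.67. Bmp2, a bone morphogenetic protein that signals through other SMADs, was low throughout, at 1.16, 0.782 and 1.92 CPM in the controls and 2.49, 2.16 and 3.75 CPM in shYthdf2 (log2 fold change 1.12 ± 0.44 SE, edgeR adjusted p = 0.976). Its shYthdf2 libraries lay above all controls, as did those of Bmp5, which stayed at or under 1.12 CPM. Gdf10 was at 2.29 to 4.10 CPM in the controls and 2.28 to 6.88 CPM in shYthdf2. Gdf15, a stress-induced cytokine of the family, was picked after its values were seen. It was low in shNC 1 and 2, at 1.22, 1.40 and 12.1 CPM in shNC 1, 2 and 3, and at 10.7, 10.2 and 6.80 CPM in shYthdf2. Gdf15 passed in edgeR without shNC 3 (adjusted p = 0.0331), in a fit that called 0.993% of all genes. As shNC 3 held its highest value, leaving it out raises the fold by construction.

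Among the other receptors, 8 of 11 had a log2 fold change above 0, 0 passed in edgeR and the median was 0.04. The direction turned without shNC 3 (4 of 11 above 0, median -0.09) and without shNC 2 (5 of 11 above 0, median -0.0013). Bmpr1a, a type I receptor for bone morphogenetic proteins, was at 28.8 to 34.8 CPM in the controls and at 28.7, 30.9 and 60.1 CPM in shYthdf2, with the excess in shYthdf2 3. Acvr2a, an activin type II receptor, was at 18.7 to 23.3 CPM and 17.2 to 19.9 CPM. Acvr1c stayed at or under 0.251 CPM in each library.

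All 7 SMAD genes of the list had a log2 fold change above 0, with a median of 0.15, and 0 passed in edgeR. With 1 library left out 5 or 6 of the 7 were above 0, and the median ran from 0.041 without shNC 2 to 0.25 without shNC 1. Smad4, the partner shared by the TGF-beta and bone morphogenetic protein branches, was at 31.2, 24.4 and 31.8 CPM in the controls and 33.4, 32.9 and 30.6 CPM in shYthdf2. Smad5 was low only in shNC 3, at 5.47 CPM against 37.4 to 55.0 CPM in the other libraries. Smad9 stayed at or under 1.93 CPM.

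The other inhibitors and co-repressors had 13 of 15 log2 fold changes above 0, with a median of 0.41 and 0 past the threshold in edgeR. The median was 0.23 without shNC 1 and 0.17 without shNC 2. Smurf1 and Smurf2, ubiquitin ligases that SMAD7 brings to the receptors, were named for their small p and did not overlap between the groups. With Ski, 3 of the 15 lay higher in shYthdf2 without overlap, against 4.95% of all genes. Smurf1 was at 35.8, 37.4 and 40.4 CPM in the controls and 54.9, 48.5 and 47.8 CPM in shYthdf2 (log2 fold change 0.41 ± 0.16 SE, edgeR adjusted p = 0.976). Smurf2 was at 32.6, 27.4 and 32.6 CPM and 39.1, 42.7 and 41.0 CPM (log2 fold change 0.41 ± 0.17 SE, edgeR adjusted p = 0.976). These differences were small, and the controls lay close together. Picking genes by a small p favours a narrow spread, so the narrow controls of Smurf1 and Smurf2 add no support. Fkbp1a, which encodes a protein that holds the type I receptor inactive, was at 60.9, 62.6 and 132 CPM in the controls and 300, 128 and 122 CPM in shYthdf2.

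Ski, the close relative of Skil, was picked after its values were seen because it ran against Skil in shNC 3. It was at 82.8, 64.2 and 23.6 CPM in the controls and 90.6, 86.7 and 89.8 CPM in shYthdf2 (log2 fold change 0.65 ± 0.41 SE, edgeR adjusted p = 0.976). Fst and Fstl3, which encode the activin-binding proteins follistatin and follistatin-like 3, were looked up beside Inhba in the same way. Fst stayed at or under 1.72 CPM, while Fstl3 was at 12.6, 13.7 and 77.9 CPM in the controls and 42.7, 43.4 and 52.0 CPM in shYthdf2. Fstl3 was highest in shNC 3 and low in shNC 1 and 2. It passed in edgeR without shNC 3 (adjusted p = 0.0278), in a fit that called 0.993% of all genes. Leaving out the control with its highest value raises the fold of Fstl3 by construction.

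Genes of latency and activation had 12 of 15 log2 fold changes above 0, with a median of 0.25 and 0 past the threshold in edgeR. The median was 0.056 without shNC 2 and 0.059 without shYthdf2 3, each with 9 of 15 above 0, and 0.57 without shNC 3. Thbs1, thrombospondin 1, an activator of latent TGF-beta that platelets also carry, was at 33.6, 30.1 and 143 CPM in shNC 1, 2 and 3, and at 267, 286 and 63.9 CPM in shYthdf2 1, 2 and 3 (log2 fold change 1.58 ± 0.76 SE, edgeR adjusted p = 0.976). It was highest in shYthdf2 1 and 2. Lrrc32, which encodes GARP, a cell surface anchor of latent TGF-beta, was at 18.4, 18.5 and 53.0 CPM and 64.1, 59.9 and 36.7 CPM. Ltbp1, which binds latent TGF-beta to the matrix, was at 19.2 to 26.6 CPM and 25.2 to 35.0 CPM. Ltbp2 was at 0.032, 0.015 and 0.333 times the FPKM of its relative Ltbp4 in shNC 1, 2 and 3, and at 0.114, 0.115 and 0.116 times in shYthdf2 1, 2 and 3.

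Established targets of TGF-beta in fibroblasts had 18 of 21 log2 fold changes above 0, with a median of 0.35 and 0 past the threshold in edgeR. Acta2, smooth muscle actin, was at 115, 92.8 and 128 CPM in the controls and 320, 321 and 174 CPM in shYthdf2 (log2 fold change 1.28 ± 0.29 SE, edgeR adjusted p = 0.976), without overlap. Tagln, another contractile gene of smooth muscle and myofibroblasts, was at 41.4, 26.9 and 58.6 CPM and 144, 145 and 44.4 CPM, so shYthdf2 3 lay among the controls. Id2, an inhibitor of helix-loop-helix factors, was at 13.2, 13.5 and 24.5 CPM and 27.2, 24.4 and 17.8 CPM. Acta2 and Tagln are themselves on the list of 10 smooth muscle and pericyte markers, which summed to 593 to 1136 CPM in the controls and 1001 to 1241 CPM in shYthdf2. Without both, the other 8 summed to 980, 988 and 407 CPM in shNC 1, 2 and 3 and to 756, 775 and 783 CPM in shYthdf2. That sum was below shNC 1 and 2 in shYthdf2 but still held Rgs5, the most abundant marker, which itself had this order. Rgs5 was at 497, 553 and 138 CPM in shNC 1, 2 and 3 and at 284, 283 and 330 CPM in shYthdf2. Without Rgs5 but with Acta2 and Tagln, the list summed to 456 to 639 CPM in the controls and 671 to 958 CPM in shYthdf2. That difference includes the 2 target genes themselves, and no sum without Rgs5, Acta2 and Tagln together was made. Of the 10 markers, 4, Acta2 among them, lay higher in shYthdf2 without overlap, against 4.95% of all genes. An unadjusted p under 0.05 in edgeR was found for 5 of the 10, Acta2 and Tagln among them, against 3.65% of all genes. The part of these cells in the result was not tested.

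Of the 21 targets, 11 were highest in shNC 3, against 24.4% of all genes, and 10 were also lowest in shNC 1 or 2, against 15.5% of all genes. Named for these values after their values were seen, Ccn2, connective tissue growth factor, was at 114, 33.7 and 993 CPM in shNC 1, 2 and 3, and at 601, 583 and 591 CPM in shYthdf2. Timp1, a metalloproteinase inhibitor, was at 70.6, 67.5 and 564 CPM and 302, 307 and 203 CPM. Their log2 fold changes were 0.64 ± 1.02 and 0.21 ± 0.80 (SE), with edgeR adjusted p of 0.976 and 0.986. Without shNC 3 the target list's median was 1.39 and edgeR called 2 of the 21, Fn1 (adjusted p = 0.0125) and Timp1 (adjusted p = 0.0339), in a fit that called 0.993% of all genes. Both were highest in shNC 3, so leaving it out raises their folds by construction. Without shNC 1 the median was 0.033, with 13 of 21 above 0, and without shNC 2 it was 0.039, with 11 of 21 above 0.

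**Figure D4:**
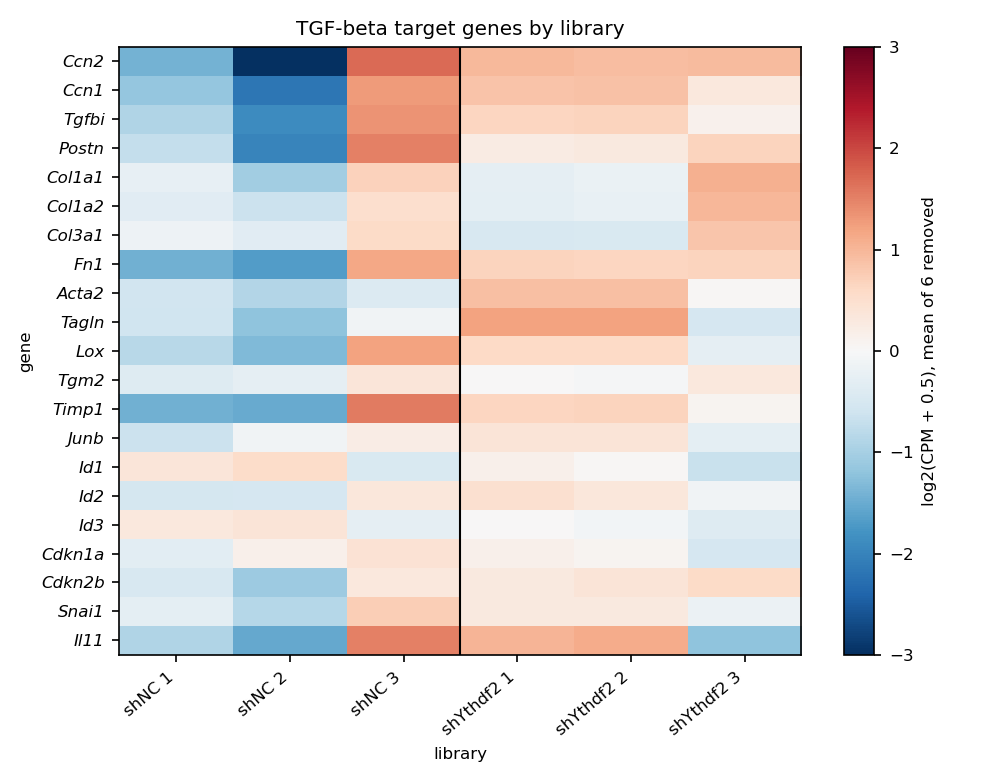
Level of 21 TGF-beta target genes in the 6 libraries, as log2(CPM + 0.5) minus the gene's mean over the 6 libraries. Red is above and blue below that mean, and the vertical line parts the groups. Ccn2, Fn1 and Timp1 are low in shNC 1 and 2 and highest in shNC 3, while Acta2 and Tagln are highest in shYthdf2 1 and 2.

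Markers of other cell types moved with these genes, and in bulk RNA fewer cells of a type and less RNA per cell cannot be told apart. The 12 cardiomyocyte markers summed to 46127, 63628 and 24720 CPM in shNC 1, 2 and 3 and to 33104, 31917 and 39028 CPM in shYthdf2, so they were lowest where Inhba and Ltbp2 were highest. The 12 macrophage and monocyte markers summed to 509, 500 and 1162 CPM in the controls and to 752, 765 and 800 CPM in shYthdf2, which is the order of Inhba and Ltbp2 over the controls, and 9 of the 12 were highest in shNC 3. Lyz2, C1qa and Csf1r were the most abundant of them. The 12 fibroblast markers summed to 1383 to 1872 CPM in the controls and 1270 to 1437 CPM in shYthdf2, with shNC 3 the lowest of the controls and Gsn, Dcn and Col1a2 the most abundant markers. Without Gsn the order differed. The other 11 summed to 843, 813 and 933 CPM in shNC 1, 2 and 3. For 6 of these 11 shNC 3 was the highest control. Among the 11, Col1a1 and Col1a2 are on the target list too. With Gsn but without these 2, the list summed to 1477, 1716 and 966 CPM in shNC 1, 2 and 3. In it shNC 3 was the highest control for 4 of 10 markers. Dcn was at 254, 244 and 130 CPM in shNC 1, 2 and 3, and Col1a2 at 120, 96.3 and 213 CPM. No sum without Gsn and both collagen genes was made. The part of these cell types in the levels of the 10 genes was not tested.

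Blood markers had other orders. The 11 platelet markers summed to 52.8, 47.2 and 68.9 CPM in the controls and to 216, 225 and 62.5 CPM in shYthdf2 1, 2 and 3, so they were high in the libraries where Tgfb1 and Thbs1 were highest. Pf4, Itgb3 and Ppbp led that list. The 11 neutrophil markers summed to 140, 209 and 409 CPM in the controls and 530, 528 and 131 CPM in shYthdf2. They too were highest in shYthdf2 1 and 2, and shNC 3 was their highest control. Erythroid markers summed to 2132, 3742 and 495 CPM and 631 to 660 CPM. Endothelial markers summed to 1054 to 1995 CPM and 1419 to 1608 CPM. Lymphocyte markers (4.01 to 11.97 CPM summed) and mesothelial markers (5.58 to 11.3 CPM summed, with Lrrn4 at 0 counts in all 6 libraries) were scarce. Their part in the result was not tested either.

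**Figure D5:**
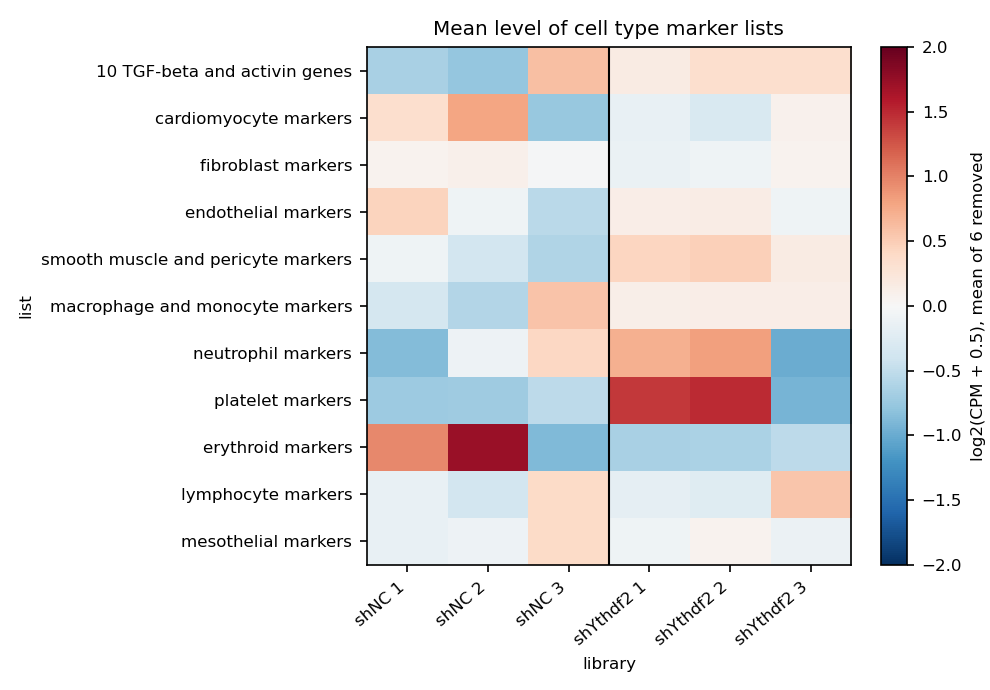
Mean level of the 10 genes and of 10 cell type marker lists in the 6 libraries, as the mean over tested genes of log2(CPM + 0.5) minus the gene's mean over the 6 libraries. In shNC 3 the 10 genes (0.59) and the macrophage and monocyte list (0.57) are at their highest and the cardiomyocyte list (-0.76) is at its lowest, and the platelet list is high in shYthdf2 1 and 2 (1.41 and 1.499).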

How the data were processed

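Total RNA of hearts was extracted with Trizol and made into libraries with an Illumina TruSeq kit, per the labels' protocols. The authors deposited raw counts per gene and FPKM values, per the file headers, with genes without counts listed at 0.0001 FPKM. The submitters' processing notes list Bowtie 0.12.2 and the build mm8 without saying what for. Counting tool, annotation, strand setting and the coordinates' build: not given in the sources used here.

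The counts of 3 shNC and 3 shYthdf2 libraries were compared in edgeR 4.0.16 (R 4.3.3) by its quasi-likelihood test, two-sided, after TMM scaling and filterByExpr, with Benjamini-Hochberg adjustment over 20489 genes and a threshold of 0.05. Standard errors were derived from the F statistic. Single values had an exact permutation test (scipy 1.17.1). The procedure was tested on simulated counts. Alternatives used other scalings and filters, DESeq2 1.42.0, limma 3.58.1 on log2(FPKM + 0.1, 0.5 or 1), a replicate block, libraries left out in turn, and shYthdf2 1 and 2 summed.

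The 10 genes and the lists were chosen with earlier results of these data known. Named beside the 10 were Ythdf2, the 3 genes of smallest p in each pathway list, the 3 most abundant markers of a cell type and the 3 genes most like each of 2 members. A result on 1 further target gene is not reported here. The list lookups under each alternative were added after seeing the data. Tested genes held at least 99.89% of each library's counts.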

Additional observations from a re-analysis of the deposited data

How the results depend on the processing

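The 0 calls among the 10 genes held under all alternatives except 1 library left out, where the count ran from 0 to 1, with Inhba called without shNC 3. The count of all genes past the threshold, reported as 2, was 1 with total count scaling, 54 with DESeq2, 1 with limma on FPKM at each of the 3 pseudocounts, and 0 with shYthdf2 1 and 2 summed, and ran from 0 to 211 with 1 library left out. The count among the pathway lists was 1 with DESeq2 and ran from 0 to 4 with 1 library left out. With the replicate number as a block the count of all genes was 0, and the log2 fold changes of Inhba and Tgfb2 were 2.10 and 0.84. Same-numbered libraries did not deviate together (r = -0.01, -0.03 and -0.06 across genes), so no pairing by number was seen. With 3 libraries a group this cannot exclude a shared batch, which was not tested. Tgfbr2 (log2 fold change -0.02) turned positive with total count scaling (0.00094), limma on FPKM (0.0158, 0.0152 and 0.0144 at pseudocounts 0.1, 0.5 and 1) and the summed libraries (0.0333). With 1 library left out the log2 fold change ran from -0.16 to 0.11 for Tgfbr2, -0.050 to 1.31 for Tgfbr1, -0.12 to 0.022 for Smad7, -0.16 to 0.42 for Skil and -0.30 to 2.48 for Ltbp2. Tgfb1, Tgfb2, Tgfb3, Inhba and Bambi kept their sign in all 18 alternatives; the lowest log2 fold change with 1 library left out was 0.01 for Tgfb3. The cause of these moves was not tested beyond the libraries named. With 3 libraries a group and a wide control group, the intervals of Inhba, Ltbp2 and Tgfbr1 leave large differences in either direction possible.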
